A study of Mus musculus with 12 samples.

Results

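Growth factor receptor kinases sit in the cell membrane, bind a secreted ligand outside the cell and phosphorylate tyrosines inside it, which switches on the RAS-MAPK and PI3K pathways. Mesenchymal and neural crest derivatives depend on the PDGF receptors, epithelia on EGFR, ERBB2, MET and the FGFR2 splice form that reads mesenchymal FGFs, and phagocytes on AXL, a receptor for GAS6. Genes of 10 such receptors, which have been considered as drug targets in rhabdoid tumors, were chosen by name: Pdgfra, Pdgfrb, Fgfr1, Fgfr2, Fgfr3, Fgfr4, Egfr, Erbb2, Met and Axl. All 10 were among the 24060 genes listed for each tumor.

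RNA was sequenced from 12 rhabdoid tumors that arose in P0-CreC;Smarcb1 flox/flox mice. In this model Cre is driven by the protein zero promoter and removes both floxed copies of Smarcb1, a core subunit of the SWI/SNF chromatin remodeling complex, from early neural crest cells. By the labelled location there were 4 retro-orbital, 3 cheek and 3 meninges tumors, and 1 tumor each of the vestibular nerve and the trigeminal nerve. No treatment is labelled, all tumors carry the same genotype, and neither the age of the mice nor normal tissue is part of these data. Inside such tumors, the paper found SMARCB1 protein kept in endothelial cells and infiltrating inflammatory cells. Whether other host cells keep Smarcb1 is not known from these data.

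Values are RPKM, read fragments per kilobase of transcript, scaled to the mapped fragments of the tumor. Levels of different genes are compared as RNA per length, by transcript lengths that are not given in the sources used here, so the order of receptors depends on those lengths. In these data 1 RPKM corresponded to between 13.2 and 57.1 fragments per kilobase in the 12 tumors. Smarcb1, the targeted gene, lay between 1.70 RPKM in the vestibular nerve tumor and 6.31 RPKM in meninges tumor 3, with a median of 4.61. With no control tissue, its reduction could not be measured, and RNA from host cells and from undeleted parts of the transcript is included in its value. The labels do not say that the tumors came from separate mice. By the first part of the sample names, cheek tumors 2 and 3 share an identifier, as do cheek tumor 1 and meninges tumor 1, and retro-orbital tumor 3 and the trigeminal nerve tumor. Over 15043 genes, log2(RPKM + 1) of cheek tumors 2 and 3 had a Pearson r of 0.984, whereas the 63 pairs with different identifiers ran from 0.768 to 0.921. Cheek tumor 1 with meninges tumor 1 (0.895) and retro-orbital tumor 3 with the trigeminal nerve tumor (0.872) lay inside this range. As separate mice are not labelled, values of p below measure the spread between these samples. Because these are bulk tumors, a lower level can mean fewer cells of a type or less RNA per cell, and the 2 cannot be told apart.

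In the mouse reference, promoters of 8 of the 10 genes were taken from the RefSeq table for GRCm38.p6, the same build as mm10. The 250 bases upstream of the start are shown for Fgfr2 and Egfr, each the highest of the receptors in some of the tumors and different in base composition. Capitals mark CG dinucleotides. The Fgfr2 window is chr7:130266809-130267058 on the minus strand, and the Egfr window is chr11:16751953-16752202 on the plus strand. Both end at the base before the annotated start of the gene.
Fgfr2: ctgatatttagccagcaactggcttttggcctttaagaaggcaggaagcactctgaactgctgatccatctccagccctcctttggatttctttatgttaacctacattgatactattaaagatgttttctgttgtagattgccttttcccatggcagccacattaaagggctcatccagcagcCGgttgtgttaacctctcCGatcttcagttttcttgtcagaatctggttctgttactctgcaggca
Egfr: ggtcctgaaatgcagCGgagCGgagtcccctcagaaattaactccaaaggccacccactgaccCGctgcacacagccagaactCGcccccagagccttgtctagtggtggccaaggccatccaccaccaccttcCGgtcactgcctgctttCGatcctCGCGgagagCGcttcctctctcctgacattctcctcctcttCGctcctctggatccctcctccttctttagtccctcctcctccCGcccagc
The Fgfr2 window held 2 CG dinucleotides and the Egfr window 11, against a median of 6 over 32851 promoter windows of the same length. A GC box (GGGCGG on either strand) occurred in the Egfr window once and in the Fgfr2 window not at all, and 32.7% of all windows held at least 1. The letters TATAAA were in neither window, on either strand, and were in 12.4% of all windows. The Met window had the most CG dinucleotides, 24, together with 1 of the 2 Fgfr3 windows. Both of these windows lie inside the gene as annotated, not upstream of its start. All these counts are features of the reference sequence and were not measured in the tumors.

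Across the 12 tumors, 4 different receptors held the highest level of the 10. Pdgfra was first in 5 tumors, Fgfr2 in 3, and Egfr and Fgfr1 in 2 each. The leading receptor made up between 26.7% and 62.5% of the summed RPKM of the 10, a sum that itself ran from 303 to 655 RPKM. It stood above at least 97.6% of all listed genes in its tumor. In 6 of the 12 tumors the leader exceeded the receptor in second place by less than 1.5-fold, so in these tumors the order at the top rests on a small difference in 1 library.

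**Figure D1:**
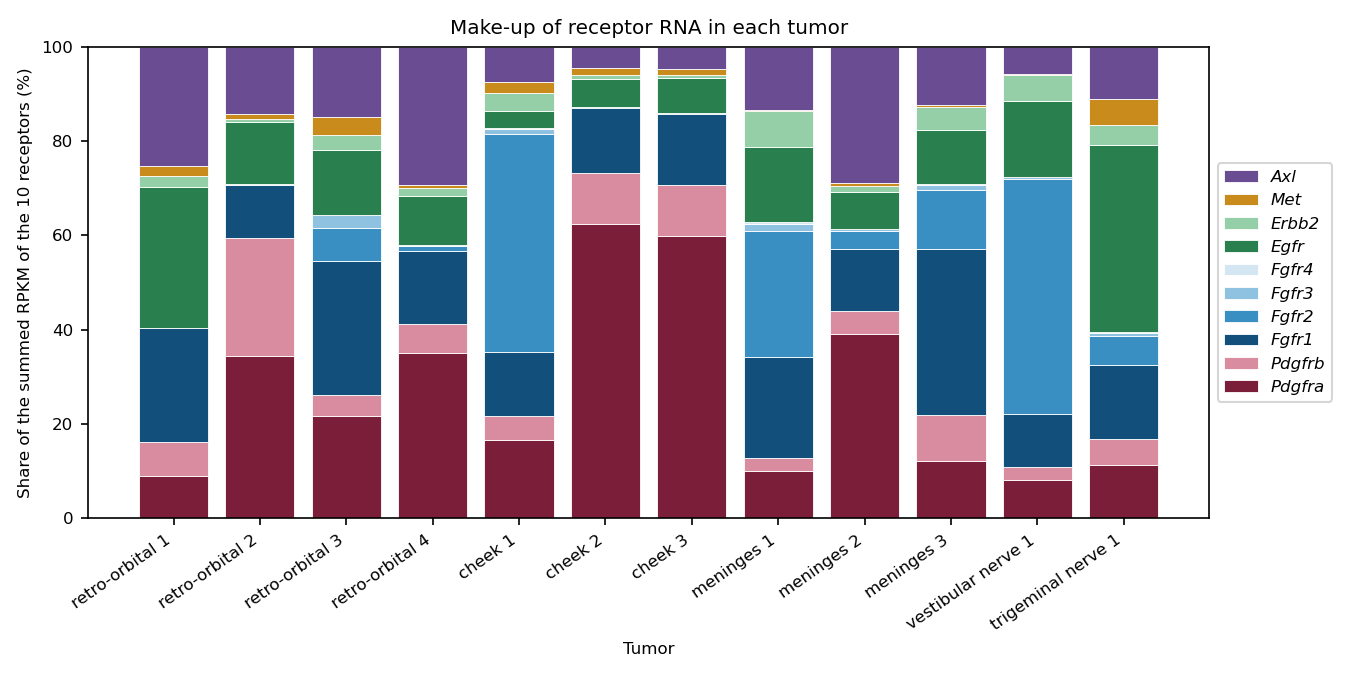
Share of each of the 10 receptors in their summed RPKM (percent, y axis) for each of the 12 tumors (x axis), 1 stacked bar a tumor. Pdgfra fills 62.5% and 59.9% of the bars of cheek tumors 2 and 3, Fgfr2 49.8% of the vestibular nerve bar and Egfr 39.6% of the trigeminal nerve bar.

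No location with several tumors had 1 leading receptor. Among the retro-orbital tumors, Egfr led in tumor 1 (109.7 RPKM, with Axl at 92.2 close behind), Pdgfra in tumor 2 (162 RPKM, 1.38-fold above Pdgfrb), Fgfr1 in tumor 3 (118 RPKM) and Pdgfra in tumor 4 (125 RPKM). In the cheek, Pdgfra led in tumors 2 and 3 by 4.52-fold and 3.99-fold over Fgfr1. In cheek tumor 1, Fgfr2 came first with 144 RPKM, 2.80-fold above Pdgfra. The 3 meninges tumors had 3 different leaders: Fgfr2 in tumor 1 (93.3 RPKM), Pdgfra in tumor 2 (219 RPKM) and Fgfr1 in tumor 3 (135 RPKM). Fgfr2 was first in the vestibular nerve tumor at 151 RPKM, and Egfr in the trigeminal nerve tumor at 134 RPKM, 3.10-fold and 2.54-fold above the next receptor. Fgfr1 was among the 3 highest receptors in 11 of the 12 tumors, the most of any, followed by Pdgfra in 8 and Axl in 6.

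**Figure D2:**
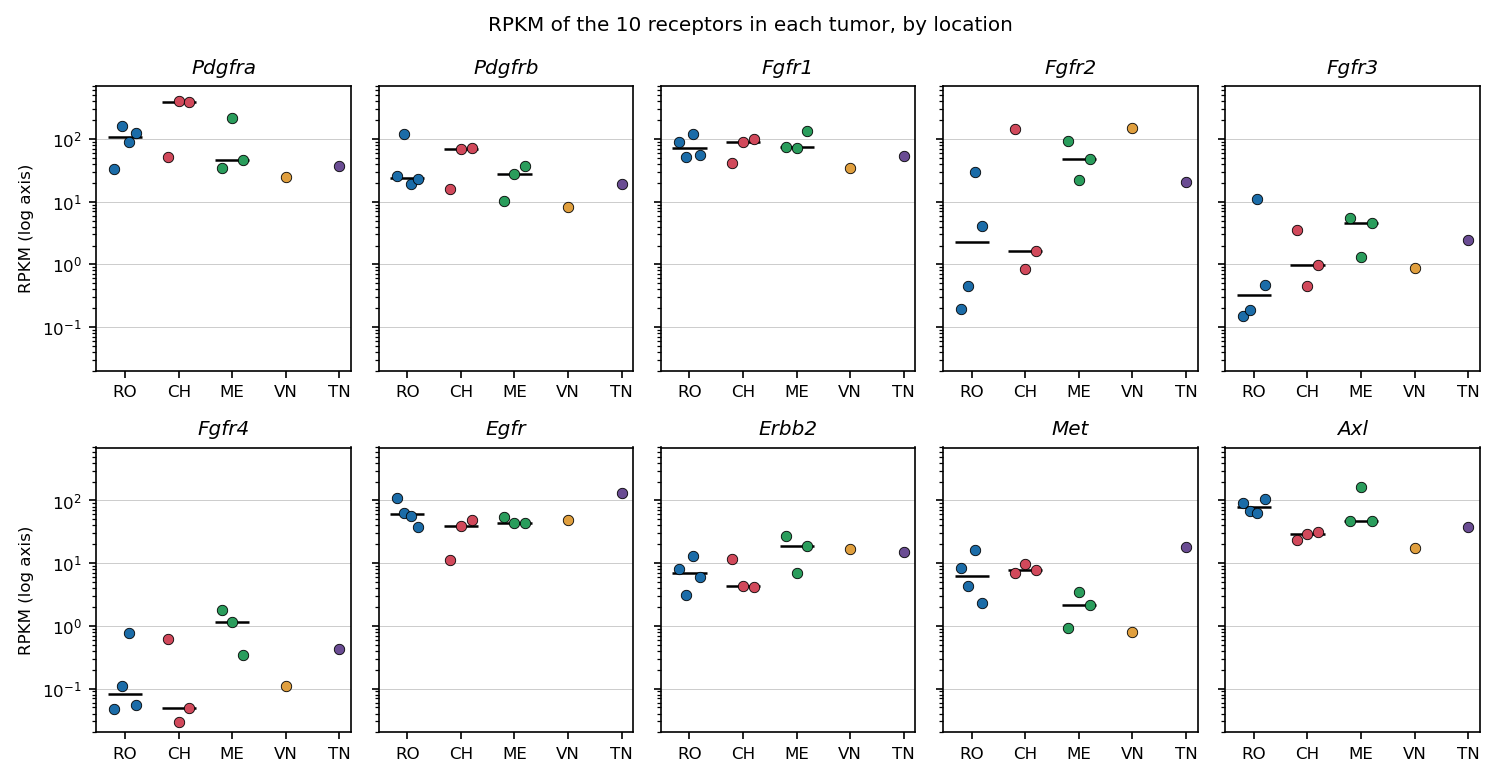
RPKM of each receptor (y axis, log scale) in the retro-orbital (RO), cheek (CH), meninges (ME), vestibular nerve (VN) and trigeminal nerve (TN) tumors; each point is 1 tumor and the line is the median of a location with several tumors. Fgfr2 spreads from 0.193 to 151 RPKM, Fgfr1 from 34.4 to 135 RPKM, and Fgfr4 stays below 2 RPKM throughout.

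The ligands come first in the pathway. Of the 4 PDGF ligands, Pdgfa, a ligand of PDGFRA, was the highest with a median of 17.6 RPKM (range 8.72 to 38.2), followed by Pdgfb, a ligand of both receptors, at 6.10 (2.23 to 17.9) and Pdgfd at 3.04 (0.455 to 9.31). Pdgfb was highest in cheek tumors 3 and 2 (17.9 and 15.6 RPKM), the tumors with the highest Pdgfra. Pdgfa was highest in the vestibular nerve tumor, the tumor with the lowest Pdgfra.

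Of the 22 FGF genes, Fgf7 (keratinocyte growth factor) had the highest median, 10.3 RPKM, and ranged from 1.40 RPKM in the trigeminal nerve tumor to 100.4 RPKM in cheek tumor 2. Fgf2 followed at 3.94 RPKM (0.529 to 30.2) and Fgf10 at 3.87 (0.485 to 42.3). FGF7 and FGF10 are ligands of the epithelial form of FGFR2. The 2 tumors with the most Fgf7, cheek tumors 2 and 3 (100.4 and 88.2 RPKM), held 0.849 and 1.66 RPKM of Fgfr2. Fgf10 was highest in the vestibular nerve tumor (42.3 RPKM) and cheek tumor 1 (38.4 RPKM), which had the highest Fgfr2. Which splice form of Fgfr2 was present cannot be read from 1 value per gene.

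Of the 11 EGF family ligands, Hbegf, a ligand of EGFR and ERBB4, was highest with a median of 17.4 RPKM (4.69 to 68.9), then the ERBB3 and ERBB4 ligand Nrg1 at 6.17 (1.22 to 18.8) and Ereg at 4.14 (0.0967 to 50.2). Hbegf reached 68.9 RPKM in retro-orbital tumor 1 and 49.9 RPKM in the trigeminal nerve tumor, both of which Egfr led, and also 58.9 RPKM in retro-orbital tumor 2, which Pdgfra led. The ligands of AXL and its relatives TYRO3 and MERTK were at 14.8 RPKM or more in all 12 tumors, with a median of 45.8 RPKM for Pros1 (14.8 to 95.3) and 37.4 RPKM for Gas6, which binds AXL (19.0 to 106). Hgf, the ligand of MET, had a median of 5.47 RPKM (1.83 to 17.0).

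**Figure D3:**
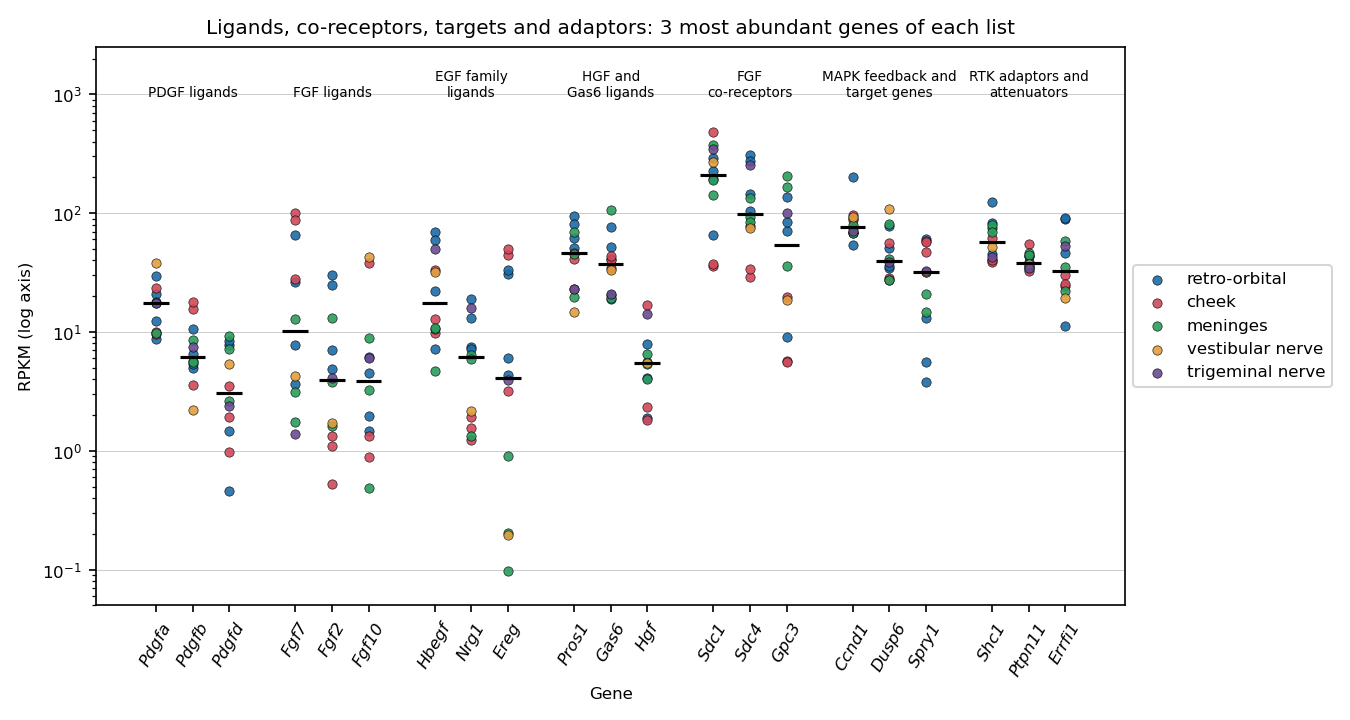
RPKM (y axis, log scale) of the 3 genes with the highest median in each of 7 lists of the pathway (x axis); each point is 1 of the 12 tumors, colored by location, and the line is the median over the 12 tumors. Sdc1 has the highest median, 210.2 RPKM, and Ereg runs from 0.0967 to 50.2 RPKM.

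Pdgfra, the receptor for all PDGF dimers except DD, was at 32.8, 162, 90.4 and 125 RPKM in the 4 retro-orbital tumors, at 51.2, 401 and 392 in the 3 cheek tumors, at 34.8, 219 and 46.6 in the 3 meninges tumors, at 24.6 in the vestibular nerve tumor and at 37.7 in the trigeminal nerve tumor. Cheek tumors 2 and 3, which share an identifier, were the highest of all 12, and cheek tumor 1 fell inside the range of the other locations. Pdgfrb, the receptor of pericytes and fibroblasts, was at 26.0, 118, 19.1 and 22.6 RPKM in the retro-orbital tumors, at 15.9, 69.3 and 70.5 in the cheek tumors, at 10.1, 27.5 and 36.9 in the meninges tumors, at 8.12 in the vestibular nerve tumor and at 19.0 in the trigeminal nerve tumor. Retro-orbital tumor 2 stood above the rest. The summed RPKM of the 5 pericyte and mural markers was 11.5 in this tumor, the lowest of the 12. The markers did not move as 1: Rgs5 was at its lowest of the 12 there (2.46 RPKM) and Notch3 at its highest (5.57 RPKM). The part of such cells in the Pdgfrb level was not tested.

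Pdgfra was higher than Pdgfrb in all 12 tumors, by a median of 1.73 on the log2 scale. The log2 ratio was 1.37 ± 1.13 (SD, n = 4) in the retro-orbital, 2.23 ± 0.48 (SD, n = 3) in the cheek and 1.70 ± 1.33 (SD, n = 3) in the meninges tumors. Cheek tumors 2 and 3, which share an identifier, had ratios of 2.53 and 2.47, so the cheek SD rests in part on that pair. A difference between the 3 locations was not detected (exact permutation test over 4200 labellings, p = 0.583). Here and for the other ratios, the test treated tumors with a shared identifier as separate. Over the 12 tumors the 2 genes had a Pearson r of 0.76 and a Spearman rho of 0.73 on log2(RPKM + 1), and r was 0.62 without the 2 tumors farthest from the median of Pdgfra.

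Fgfr1, the FGF receptor of mesenchymal and neural tissue, varied least of the 10, by 3.92-fold between its lowest and highest tumor. It was at 88.6, 52.5, 118 and 55.0 RPKM in the retro-orbital tumors, at 42.0, 88.9 and 98.3 in the cheek tumors, at 74.7, 73.1 and 135 in the meninges tumors, at 34.4 in the vestibular nerve tumor and at 52.7 in the trigeminal nerve tumor. The 3 locations with several tumors overlapped.

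Fgfr2 varied most, by 780-fold, or in recovered fragments from 28 to 22912. Its level was 0.193, 0.445, 29.4 and 4.02 RPKM in the retro-orbital tumors, 144, 0.849 and 1.66 in the cheek tumors, 93.3, 22.3 and 47.3 in the meninges tumors, 151 in the vestibular nerve tumor and 20.9 in the trigeminal nerve tumor. Within the cheek Fgfr2 was the highest of the 10 receptors in tumor 1 and under 2 RPKM in tumors 2 and 3, whereas no meninges tumor was below 22.3 RPKM. The summed RPKM of 5 epithelial markers (Epcam, Krt5, Krt14, Cdh1 and Krt8) moved with Fgfr2 in part. It was 628 in the vestibular nerve tumor, the highest for both, and 5.15 in retro-orbital tumor 2, where Fgfr2 was 0.445 RPKM. In cheek tumor 3, with its low Fgfr2, it was 362. Different markers carried these sums. Epcam was 551 RPKM in the vestibular nerve tumor and 9.19 in cheek tumor 3, whereas Krt14 was 0.636 and 270 RPKM. Over the 12 tumors r between the summed markers and Fgfr2 was 0.63 (rho 0.70) on the log2 scale. The epithelial list was not alone: r was -0.71 (rho -0.68) for the neuron, 0.61 for the oligodendrocyte lineage and 0.55 for the astrocyte list. For the remaining lists r was smaller in size. The part of any of these cells in the Fgfr2 level was not tested.

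Fgfr3 and Fgfr4, the other FGF receptors, were low. Fgfr3 was at 0.151, 0.186, 11.1 and 0.474 RPKM in the retro-orbital tumors, at 3.54, 0.446 and 0.964 in the cheek tumors, at 5.40, 1.33 and 4.56 in the meninges tumors, at 0.888 in the vestibular nerve tumor and at 2.45 in the trigeminal nerve tumor. Its recovered fragments ran from 18 to 2784 with a median of 132. Retro-orbital tumor 3 stood far above the other 3 tumors of its location and was the highest of all 12. The summed astrocyte markers (Gfap, Aqp4, Aldoc, Slc1a2 and Gja1) were 377 RPKM in retro-orbital tumor 3 against 60.9 to 223 in the other retro-orbital tumors. Of these, Gja1 was 59.1 RPKM there but 219.5 in retro-orbital tumor 2. Its pericyte and mural markers were 276 against 11.5 to 47.5, of which Rgs5 alone was 256. Kcnj8, Abcc9, Notch3 and Myh11 of that list were each higher in another retro-orbital tumor. Its epithelial markers were 531 against 5.15 to 144. The part of all these markers in Fgfr3 was not tested. Fgfr4 stayed between 0.0292 and 1.78 RPKM, at 2 to 154 fragments a tumor with a median of 14, and reached 1 RPKM only in meninges tumors 1 and 2. At this depth, differences of Fgfr4 among the low tumors were not detectable.

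The log2 ratio of Fgfr1 to Fgfr2 was 5.14 ± 2.80 (SD, n = 4) in the retro-orbital, 3.53 ± 4.60 (SD, n = 3) in the cheek and 0.97 ± 1.12 (SD, n = 3) in the meninges tumors (exact permutation test, p = 0.268, 0.494 adjusted over the 3 ratios tested). The lowest retro-orbital ratio (2.01) lay above the highest meninges ratio (1.71), and both values lay inside the range of the cheek tumors. This gap was picked after the values were seen, and its share over other ratios was not computed. Among single genes, 9.23% of those tested did not overlap between these 2 locations. Fgfr2 exceeded Fgfr1 only in the 3 tumors that it led.

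Egfr, the receptor of EGF, TGFA and HBEGF, was at 109.7, 62.6, 57.5 and 37.8 RPKM in the retro-orbital tumors, at 11.2, 38.5 and 48.2 in the cheek tumors, at 55.3, 43.3 and 43.8 in the meninges tumors, at 48.7 in the vestibular nerve tumor and at 134 in the trigeminal nerve tumor. The trigeminal nerve tumor and retro-orbital tumor 1 stood above the rest, cheek tumor 1 below. Erbb2, which has no ligand of its own and signals as a dimer with its relatives, was at 7.97, 3.14, 12.9 and 6.03 RPKM in the retro-orbital tumors, at 11.8, 4.34 and 4.23 in the cheek tumors, at 27.0, 6.98 and 18.6 in the meninges tumors, at 16.9 in the vestibular nerve tumor and at 14.8 in the trigeminal nerve tumor. It was never above the sixth place among the 10.

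Egfr was higher than Erbb2 in 11 tumors and marginally lower in cheek tumor 1 (11.2 against 11.8 RPKM). Their log2 ratio was 3.21 ± 0.98 (SD, n = 4) in the retro-orbital, 2.17 ± 1.96 (SD, n = 3) in the cheek and 1.63 ± 0.86 (SD, n = 3) in the meninges tumors. The locations were not distinguishable (exact permutation test, p = 0.330, 0.494 adjusted over the 3 ratios).

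**Figure D4:**
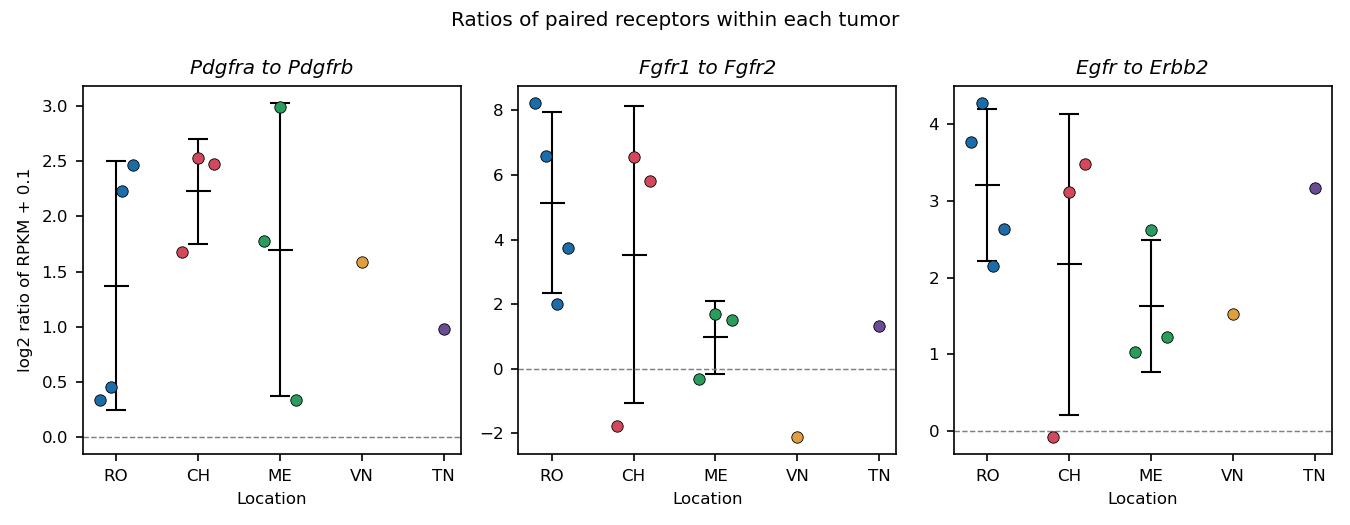
Ratio of the RPKM of paired receptors within a tumor (y axis, log2 of the ratio after adding 0.1 RPKM to each) by location (x axis: retro-orbital RO, cheek CH, meninges ME, vestibular nerve VN, trigeminal nerve TN). Points are tumors, bars are the mean ± SD, and the dashed line marks equal levels. All 12 tumors lie above it for Pdgfra to Pdgfrb, and the cheek tumors span the meninges tumors for Fgfr1 to Fgfr2.

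Erbb2 varied together with Fgfr2 across the tumors. Over the 12 tumors r on the log2 scale was 0.84 (rho 0.75) for Fgfr2 and Erbb2, 0.86 without the 2 tumors most extreme in Fgfr2, and 0.04 for Egfr and Erbb2. Erbb2 was lower in tumors with more of the PDGF receptors, with r of -0.81 for Pdgfra and -0.82 for Pdgfrb. The summed markers of other cell types moved with both genes: r with the epithelial list was 0.72 for Erbb2 and 0.63 for Fgfr2, and with the oligodendrocyte lineage list 0.69 and 0.61. Their part in the likeness of Erbb2 and Fgfr2 was not tested. All these values are descriptions of the same 12 libraries, with 45 pairs of receptors computed.

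Met, the receptor of HGF, was at 8.30, 4.27, 16.0 and 2.34 RPKM in the retro-orbital tumors, at 6.94, 9.84 and 7.83 in the cheek tumors, at 0.940, 3.45 and 2.19 in the meninges tumors, at 0.810 in the vestibular nerve tumor and at 18.3 in the trigeminal nerve tumor. All 3 meninges tumors lay below all 3 cheek tumors, and the retro-orbital tumors covered both. The ligand Hgf was at 17.0 RPKM in cheek tumor 1 but 2.36 and 1.83 RPKM in cheek tumors 2 and 3.

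Axl was at 92.2, 67.3, 62.3 and 105 RPKM in the retro-orbital tumors, at 23.1, 28.8 and 30.9 in the cheek tumors, at 46.5, 162 and 46.6 in the meninges tumors, at 17.3 in the vestibular nerve tumor and at 37.5 in the trigeminal nerve tumor. The cheek tumors lay below every retro-orbital and every meninges tumor. Axl moved with the leukocyte markers Ptprc, Cd52, Laptm5, Coro1a and Cd53, whose summed RPKM was 127 to 302 in the retro-orbital, 59.8 to 92.4 in the cheek and 151 to 284 in the meninges tumors and was lowest in the vestibular nerve tumor at 44.0. The summed macrophage and microglia markers (4 of 5 found) were 735 to 1632, 540.0 to 574 and 837 to 1219 RPKM in the same order. Over the 12 tumors r with Axl was 0.90 (rho 0.92) for the leukocyte and 0.79 (rho 0.80) for the macrophage list. The part of these cells in the Axl level was not tested.

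**Figure D5:**
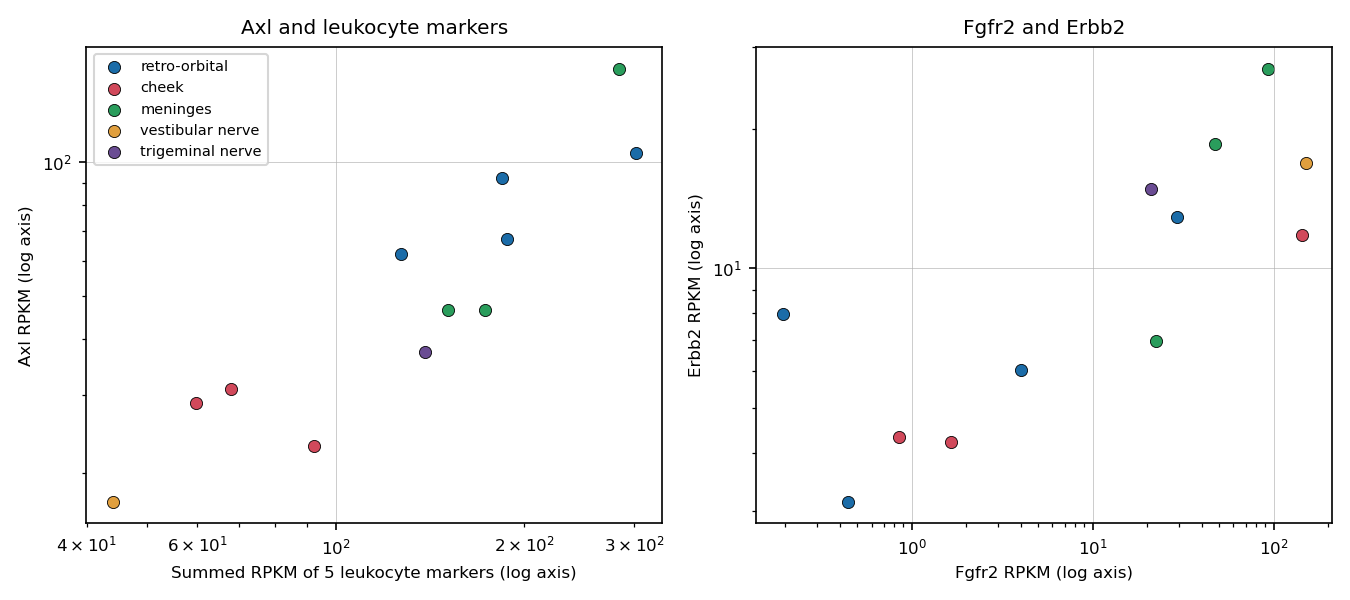
Left, RPKM of Axl (y axis) against the summed RPKM of 5 leukocyte markers (x axis), and right, RPKM of Erbb2 (y axis) against Fgfr2 (x axis), all on log scales, with 1 point a tumor colored by location. Axl is higher in tumors with more of the leukocyte markers (r = 0.90, n = 12), and the vestibular nerve tumor has the lowest value of both; Erbb2 is higher in tumors with more Fgfr2 (r = 0.84, n = 12).

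Locations were compared gene by gene with limma on log2(RPKM + 1) in the 10 retro-orbital, cheek and meninges tumors, with Benjamini-Hochberg adjustment over 14745 genes. Fgfr4 was below the filter of 1 RPKM in at least 3 tumors, which left 9 of the 10 receptors. Few genes passed 0.05 at all: 0.0407% of those tested over the 3 locations together, 0.0271% for cheek against retro-orbital, 0.0203% for meninges against retro-orbital and 0.0475% for meninges against cheek. None of the 9 receptors passed in any of the 4 comparisons, nor when any 1 of the 10 tumors was left out. At an unadjusted p under 0.05 there were 2 of 9 in each, beside 14.3%, 12%, 9.14% and 17% of all genes tested.

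Axl had the lowest adjusted p of the receptors over the 3 locations (limma, adjusted p = 0.259). It was lower in the cheek than in the retro-orbital tumors by a log2 difference of -1.51 (SE 0.41, limma adjusted p = 0.257) and higher in the meninges than in the cheek tumors by 1.34 (SE 0.44, limma adjusted p = 0.213). Of the 5 leukocyte markers, 0 passed in either of these comparisons and 5 had an unadjusted p under 0.05 in each, with median log2 differences of -1.32 and 1.04. Met differed between meninges and cheek by -1.60 (SE 0.56, limma adjusted p = 0.224). Egfr differed between cheek and retro-orbital tumors by -1.14 (SE 0.48, limma adjusted p = 0.395), and this was -0.52 without cheek tumor 1. Fgfr2 had the largest difference in size, 3.56 between meninges and retro-orbital tumors, with an SE of 1.58 and a 95% interval from 0.01 to 7.10 (limma adjusted p = 0.546). The 95% interval for cheek against retro-orbital ran from -0.82 to 3.17 for Pdgfra and from -0.93 to 0.83 for Fgfr1.

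Groups did not overlap for 1 of the 9 receptors between cheek and retro-orbital tumors (Axl), for 0 of 9 between meninges and retro-orbital tumors, and for 2 of 9 between meninges and cheek tumors (Axl and Met). Over all genes tested this was so for 11.1%, 9.23% and 28.7%, and the receptors were near these shares.

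These calls depended on how tumors with a shared identifier were treated. Only 2 such pairs are among the 10 tumors, and with the identifier as a random block limma estimated a correlation of 0.93 within them. Under this block 4243 genes passed for meninges against cheek in place of 7, or 28.8% of those tested, and 5 of the 9 receptors were among them. These were Egfr (log2 difference 2.03, adjusted p = 0.00083), Met (-1.96, adjusted p = 0.000856), Axl (1.04, adjusted p = 0.00423), Erbb2 (1.12, adjusted p = 0.00647) and Fgfr1 (0.76, adjusted p = 0.0119). The same 5 passed over the 3 locations together, as did 19% of all genes, at adjusted p of 0.00273 for Egfr to 0.0358 for Fgfr1. Over all alternatives, block included, the highest adjusted p for meninges against cheek was 0.854 for Egfr, 0.619 for Met, 0.590 for Axl, 0.696 for Erbb2 and 0.975 for Fgfr1. None of the 9 passed for cheek or meninges against retro-orbital tumors under it, beside 0.0136% and 0.0203% of all genes. Whether an identifier stands for a mouse is not stated, and 1 of the 2 pairs is the cheek tumors 2 and 3. The other, cheek tumor 1 and meninges tumor 1, is the only pair that spans 2 locations. At this correlation the block fit draws meninges against cheek mostly from that pair. In cheek tumor 1 and meninges tumor 1, Egfr was 11.2 and 55.3 RPKM and Met 6.94 and 0.940 RPKM. The calls under the block thus rest mainly on 1 pair of tumors.

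Other genes of the pathway gave no call between locations in the fit without the block. With the block, meninges against cheek called 1 of 4 PDGF ligands, 6 of 10 FGF genes and 2 of 7 EGF family ligands. The same comparison called 1 of 3 ligands of AXL, its relatives and MET, 3 of 10 co-receptors and 8 of 18 MAPK feedback and target genes. Of the remaining lists, 2 of 13 adaptors and attenuators and 9 of 33 other receptor kinases were called, beside the 28.8% of all genes. No gene of these lists was called against the retro-orbital tumors under the block. The counts that follow are from the fit without the block, where an unadjusted p under 0.05 was reached by 12% of all genes for cheek against retro-orbital, 9.14% for meninges against retro-orbital and 17% for meninges against cheek. None of the 4 PDGF ligands passed in any of the 4 limma comparisons, nor had any an unadjusted p under 0.05. Of the 22 FGF genes 10 passed the filter, with 0 called, and in the same order 1, 0 and 4 had an unadjusted p under 0.05. For meninges against cheek their median log2 difference was 1.26 beside 0.16 over all genes. The 7 EGF family ligands tested had 0 called and 1, 3 and 1 at an unadjusted p under 0.05, with a median of -1.26 for meninges against retro-orbital tumors beside 0.13 over all genes. For the 3 ligands of AXL, its relatives and MET there were 0 called and 1, 0 and 0 at an unadjusted p under 0.05.

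The 3 co-receptors with the highest medians were 2 syndecans and a glypican, proteoglycans that hold FGFs at the cell surface. Sdc1 had a median of 210.2 RPKM (35.8 to 479), Sdc4 98.6 (28.8 to 309.9) and Gpc3 53.5 (5.54 to 206). Sdc1 was highest in cheek tumor 1 (479 RPKM) and lowest in cheek tumors 2 and 3 (35.8 and 37.5 RPKM), the same contrast within the cheek as for Fgfr2. Of 10 co-receptors tested, 0 were called without the block, and in the order above 3, 0 and 4 had an unadjusted p under 0.05.

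Downstream, all 18 MAPK feedback and target genes passed the filter. Ccnd1 (cyclin D1) had a median of 77.1 RPKM (53.9 to 202), Dusp6, a phosphatase that inactivates ERK, 39.9 (27.2 to 108) and Spry1, a feedback inhibitor, 31.9 (3.78 to 60.7). Dusp6 was highest in the vestibular nerve tumor (108 RPKM) and Ccnd1 in retro-orbital tumor 2 (202 RPKM). None of the 18 passed between locations without the block, and 5, 1 and 3 had an unadjusted p under 0.05. Of the 13 adaptors and attenuators, Shc1 (57.0 RPKM), Ptpn11 (38.2 RPKM) and Errfi1, an inhibitor of EGFR (32.5 RPKM), had the highest medians, with 0 of 13 called and 3, 0 and 3 at an unadjusted p under 0.05.

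Against the 44 other receptor tyrosine kinases, 4 of the 10 were among the 6 with the highest levels. By median RPKM over the 12 tumors Fgfr1 ranked first of 54 (73.9 RPKM) and Pdgfra second (70.8 RPKM), followed by Csf1r, the receptor of macrophages (51.9 RPKM), Ddr2, a collagen receptor (50.2 RPKM), Egfr (48.5 RPKM) and Axl (46.6 RPKM). Next came Ryk and Ptk7, both receptors of Wnt signaling, at 42.6 and 26.2 RPKM. Ephb4 (21.8 RPKM) ranked between Pdgfrb (24.3 RPKM) and Fgfr2 (21.6 RPKM). Csf1r was the only one of the 44 that exceeded the highest of the 10 receptors in any tumor, in retro-orbital tumor 4 with 134 RPKM against 125 for Pdgfra. None of the 33 that could be tested passed between locations without the block, and 4, 5 and 4 had an unadjusted p under 0.05.

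For each of the 9 receptors that passed the filter over the 12 tumors, the 2 genes whose log2(RPKM + 1) had the highest Pearson r with it were sought among 15021 genes (n = 12 tumors). Smurf1, a ubiquitin ligase of BMP signaling (r = 0.97, 0.96 without the 2 tumors most extreme in Pdgfra), and Synpo, an actin-binding protein (0.94), were most like Pdgfra, and Fam26e (0.97) and the motor protein Myo5a (0.93) most like Pdgfrb. LOC102633315 and Enpp1 (0.92 and 0.91) were closest to Fgfr1, Sppl2b and Gm166 (0.96 and 0.95) to Fgfr2, and Ccdc3 (0.96) to Fgfr3. Cdk13 and Fosb (0.91 and 0.90) were closest to Met. Axl was most like Smim24 (0.97) and Cybb, the NADPH oxidase subunit of phagocytes (0.96), whose level ran from 10.4 to 55.2 RPKM. The gene most like Erbb2 was Pgap3 (0.96), which lies 11287 bases from it on chromosome 11 of GRCm38.p6 with 0 annotated genes between, and the next was Cpox (0.96). Egfr had the weakest likeness, 0.83 for Mgrn1 and 0.75 for Myl9, and the latter was 0.38 without the 2 tumors most extreme in Egfr. Each pair was picked as the highest of 15021 genes over 12 tumors, and the values are descriptions.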

How the data were processed

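RNA of 12 mouse tumors was sequenced by the authors from ribosome-depleted, stranded libraries, run as 1 pool, so no sequencing batch separates the groups. Base calls came from bcl2fastq 2.17. The authors used STAR for alignment to the mm10 genome, left out reads that did not map uniquely, counted fragments on RefSeq (refFlat) genes with HTSeq 0.6.0 and deposited 1 RPKM value per gene and tumor. The transcript lengths used are not given in the sources used here. Genes whose symbols had become dates (27 rows) stayed in the tests and were never named.

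Groups are the labelled locations, and tumors are numbered in accession order, which pairs nothing. The spacing of the lowest RPKM values gave fragment totals that ranged from 13206173 to 57128294 (median 27929654), with 68.3% to 77.0% of the low values within 0.1 of a whole number. Fragment numbers of single genes are given where a length made the values whole, and they bound counting error only. Since not nearly all values came out whole, no count test was run.

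Locations were compared with limma 3.58.1 in R 4.3.3 on log2(RPKM + 1), which understates changes of low genes, with a trended and robust prior variance, a filter of 1 RPKM in at least 3 tumors and Benjamini-Hochberg adjustment at 0.05. On simulated data the same test was checked with known changes. Ratios were compared by an exact permutation test over location labels, one-sided in F, after adding 0.1 RPKM. Tables, ratios and plots were made with pandas 2.3.3, numpy 2.4.6 and matplotlib 3.10.9 in Python 3.11.15. Pseudocount, filter, normalization, prior variance and an identifier block were varied, and tumors left out in turn.

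The 10 receptors are all named. Of each pathway list the 3 genes with the highest median are named, of the other receptor kinases the 5 highest and any above all 10 receptors in a tumor, and for each receptor the 2 genes with the highest Pearson r. A gene that this rule names is not reported here. A few further values of named genes in single tumors were picked after they were seen. The receptors and lists were chosen with earlier results of these data known. Promoter sequences are from RefSeq on GRCm38.p6. The promoters of Fgfr1 and Pdgfrb were not used here. The windows of Pdgfra and Met and the Fgfr3 window with 24 CG dinucleotides lie inside the gene as annotated. The Axl window does so in part. None of these is shown.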

Additional observations from a re-analysis of the deposited data

Results flagged for a closer look

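In the 4 retro-orbital tumors, the gap between the most distant tumor and its nearest neighbor, divided by the range of all 4, exceeded Dixon's 95% critical value for 4 samples in 3 of 13 measures screened on log2(RPKM + 1). By chance about 1 in 20 groups, or 0.65 of 13, would do so. Pdgfrb had a value of 0.836, with retro-orbital tumor 2 the highest (118 RPKM against 19.1 to 26.0). Fgfr3 had a value of 0.895, with retro-orbital tumor 3 the highest (11.1 RPKM against 0.151 to 0.474). Fgfr4 had a value of 0.892, also with retro-orbital tumor 3 the highest (0.773 RPKM against 0.0469 to 0.108). The groups of 3 tumors were not screened.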

How the results depend on the processing

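No receptor passed 0.05 in limma under any alternative except the identifier block, and no ratio differed between locations under any. Counts of genes passing moved with most settings: 10, 2, 7 and 18 genes without a filter (over the 3 locations, cheek against retro-orbital, meninges against retro-orbital and meninges against cheek) in place of 6, 4, 3 and 7. A filter of 5 RPKM gave 3, 1 and 1 genes over the 3 locations, for meninges against retro-orbital and for meninges against cheek. A constant prior variance gave 19, 6 and 22 in the same order. Meninges against cheek gave 2 genes with a pseudocount of 0.1 and 13 after quantile normalization. With the identifier as a random block the counts were 2802 over the 3 locations and 2 for cheek against retro-orbital. For meninges against cheek the count was 4243, drawn mainly from the pair of cheek tumor 1 and meninges tumor 1. The log2 differences of Pdgfra (0.13) and Egfr (0.069) for meninges against retro-orbital and of Fgfr2 (-0.27) for meninges against cheek then changed sign, none of them past the threshold.

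Leaving out 1 tumor at a time gave 0 to 198 genes over the 3 locations, 0 to 147 for cheek against retro-orbital, 0 to 41 for meninges against retro-orbital and 0 to 527 for meninges against cheek. The counts of 198, 147 and 527 came without cheek tumor 1, and 41 without retro-orbital tumor 3. Without cheek tumor 2 or cheek tumor 3 all 4 counts were 0. Without retro-orbital tumor 3 the counts were 56 over the 3 locations and 65 for meninges against cheek, and without meninges tumor 1 both were 0. Log2 differences that changed sign, all uncalled, ranged for cheek against retro-orbital from -0.027 to 1.01 (Pdgfrb), -0.27 to 0.33 (Fgfr1), -0.86 to 2.28 (Fgfr2), -0.40 to 0.89 (Fgfr3), -0.55 to 0.15 (Erbb2) and -0.044 to 0.74 (Met). For meninges against retro-orbital they ranged from -1.11 to 0.20 (Pdgfra), -0.0059 to 0.50 (Fgfr1) and -0.76 to 0.13 (Axl), and for meninges against cheek from -0.048 to 0.56 (Fgfr1). The cause of these changes was not tested. No paired analysis was possible because the labels give no replicate numbers that locations share. The first part of the sample names, which some tumors share, was used as the random block above in its place. Fragment numbers limit Fgfr4 and, in the tumors where they are low, Fgfr3 and Fgfr2.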
